A study of Homo sapiens with 2 samples.

Results

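The E2F, RB, MYBL2 and FOXM1 regulators are a set of 10 transcription factor and pocket protein genes that run the transcription of the cell cycle. They comprise E2F1, E2F2, E2F3, E2F5, E2F7, E2F8, RB1, RBL1, MYBL2 and FOXM1. They were picked by gene name from 19775 genes named on the array, with earlier results of these data known. The array held 20 probe sets for them, of 54675 in all. A probe set is a group of short probes that together report 1 transcript or a set of variants. The samples were AGS cells, an epithelial line from a human gastric adenocarcinoma, of which 1 array carried RNA of cells with galectin-3 silenced by a synthetic small interfering RNA and 1 array carried RNA of control cells. Both arrays come from the same line. The labels do not say how many siRNA sequences were used, how long after transfection RNA was taken, or what the control cells received. The comparison asks how expression differs when galectin-3, a galactoside-binding lectin encoded by LGALS3, is silenced.

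In the textbook model, hypophosphorylated RB proteins bind E2F factors at the promoters of replication genes and keep them off, and phosphorylation by cyclin-dependent kinases releases the E2Fs at the end of G1. E2F1, E2F2 and E2F3 act as activators, E2F5 mainly represses with the pocket proteins, and E2F7 and E2F8 are atypical repressors that bind DNA without a DP partner. RBL1, also called p107, belongs with an E2F and the MuvB core to the DREAM complex, which silences cell-cycle genes in quiescent cells. MYBL2, also called B-MYB, replaces the pocket protein on MuvB in S phase, and FOXM1 then joins to drive the genes of G2 and mitosis. Several of these regulators are themselves transcribed from E2F-bound promoters, and their mRNA is known to be more abundant in dividing than in quiescent cells.

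The promoter letters of 4 members are shown because members that were lower after silencing and E2F1, whose signals were nearly equal, can be set side by side. RefSeq promoter windows of assembly GRCh38.p14 run from 250 bases before to 50 bases after an annotated start. A window within 1000 bases of the gene's annotated 5′ end was found for 6 of the 10 members, E2F1, E2F2, E2F3, E2F7, RBL1 and MYBL2. The window listed for RB1 lay farther inside the gene and was left out, and no window was used here for E2F5, E2F8 and FOXM1. Capitals mark letters of the E2F words TTTCCCGC, TTTCGCGC, TTTGCCGC and TTTGGCGC, of the E2F core GGCGGGA, of the cell-cycle homology region (CHR) TTTGAA and of the CCAAT box, each on either strand. The MYBL2 window is chr20:43666864-43667163 on the plus strand, that of RBL1 chr20:37095948-37096247, that of E2F7 chr12:77065520-77065819 and that of E2F1 chr20:33686336-33686635, the last 3 on the minus strand, and each is written 5′ to 3′ on the gene's strand.
MYBL2: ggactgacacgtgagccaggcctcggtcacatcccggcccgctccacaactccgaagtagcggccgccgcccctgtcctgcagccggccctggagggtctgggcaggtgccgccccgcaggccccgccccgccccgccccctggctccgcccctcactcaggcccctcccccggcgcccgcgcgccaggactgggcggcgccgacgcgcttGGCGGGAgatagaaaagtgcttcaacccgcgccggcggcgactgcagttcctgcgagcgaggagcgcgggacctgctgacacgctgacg
RBL1: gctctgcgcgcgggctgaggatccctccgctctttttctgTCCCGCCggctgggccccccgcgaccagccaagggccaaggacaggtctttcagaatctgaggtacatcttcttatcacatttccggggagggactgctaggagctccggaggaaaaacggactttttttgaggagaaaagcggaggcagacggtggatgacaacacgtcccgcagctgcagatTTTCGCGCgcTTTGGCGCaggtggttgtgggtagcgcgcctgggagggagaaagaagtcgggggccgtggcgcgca
E2F7: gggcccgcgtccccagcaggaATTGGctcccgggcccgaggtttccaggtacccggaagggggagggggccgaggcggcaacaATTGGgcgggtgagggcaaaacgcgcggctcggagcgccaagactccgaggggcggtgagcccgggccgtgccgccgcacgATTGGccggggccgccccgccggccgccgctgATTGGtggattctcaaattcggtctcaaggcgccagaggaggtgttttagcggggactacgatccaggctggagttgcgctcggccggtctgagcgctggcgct
E2F1: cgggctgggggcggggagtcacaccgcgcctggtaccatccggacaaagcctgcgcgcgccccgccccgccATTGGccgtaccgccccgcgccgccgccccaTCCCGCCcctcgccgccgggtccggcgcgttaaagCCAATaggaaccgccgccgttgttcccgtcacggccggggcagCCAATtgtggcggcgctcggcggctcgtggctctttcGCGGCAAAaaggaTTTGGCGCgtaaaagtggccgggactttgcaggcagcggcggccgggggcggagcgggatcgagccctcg

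An E2F word was found in 4 of the 6 member windows, those of E2F1, E2F2, E2F3 and RBL1, in 3.36% of the 25745 windows of all genes and in 5.84% of the 8097 windows of measured genes, to which the members belong. The E2F core was found in 4 of the 6, those of E2F1, E2F3, RBL1 and MYBL2, in 15.5% of all windows and in 26.1% of those of measured genes. In E2F3 the core overlaps the word. The words of E2F1 begin at positions -33 and -20 from the annotated start and those of RBL1 at -26 and -16. The core of MYBL2 begins at -39. E2F7 held neither kind of E2F letters, but 4 CCAAT boxes. A CCAAT box was found in 3 of the 6 windows, against 35.9% of all windows and 37.8% of those of measured genes. TTTGAA was found in 1 of the 6, that of E2F3, against 15.4% of all windows and 9.98% of those of measured genes. A match of letters is a description of the sequence and not a measured binding site.

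**Figure D1:**
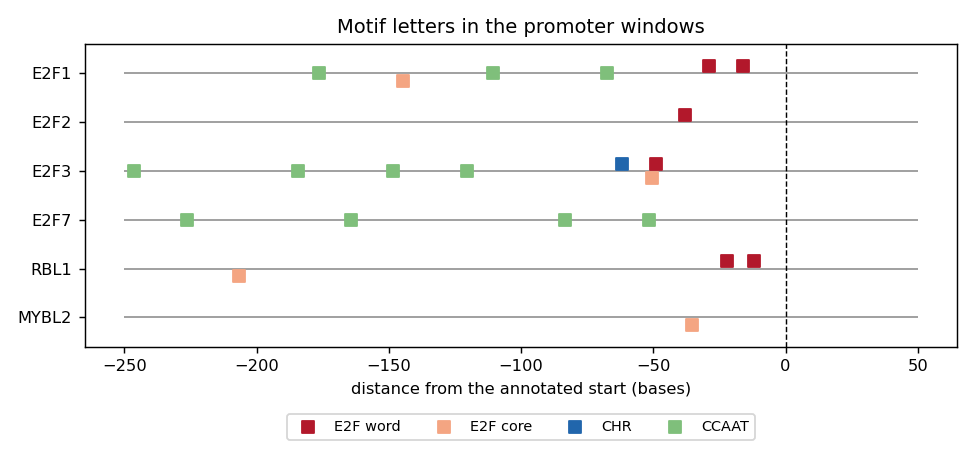
Positions of motif letters in the 6 promoter windows, in bases from the annotated start (dashed line), with 1 line per gene and squares for the E2F word, the E2F core, CHR and CCAAT on either strand. E2F words of E2F1, E2F2, E2F3 and RBL1 lie close before the start, and E2F7 holds CCAAT boxes only.

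The arrays themselves had equal scaling, with a 2% trimmed mean of 500.07 on the silenced array and 500.07 on the control array. A background floor was taken from 135 olfactory receptor probe sets, at their 95th percentile, and lay at 109.5 on the silenced array and 138.4 on the control array. LGALS3 had a signal of 2699.8 on the silenced array, against 20206 on the control array, which is 7.48-fold lower, and its other probe set stayed below the floor in both samples. All 5 epithelial markers (EPCAM, KRT8, KRT18, KRT19 and CLDN4) were above the floor, while 0 of 6 leukocyte markers, 1 of 6 fibroblast markers (COL1A1) and 1 of 3 endothelial markers (PECAM1, at 121 above the lower floor of the silenced array, against 127.4 under that of the control array) were. Summed marker signals were 105700 on the silenced array and 87110 on the control array for epithelium, and 2314 on the silenced array and 1728 on the control array for fibroblasts. They were 321.4 on the silenced array and 171.5 on the control array for leukocytes, all under the floor, and 220.5 on the silenced array and 307.4 on the control array for endothelium. The part of these differences in the results on the regulators was not tested. The ratio of the 3′ to the 5′ control probe set was 0.936 on the silenced array and 0.98 on the control array for GAPDH, and for ACTB it was 1.13 on the silenced array and 1.14 on the control array.

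Of the 10 regulators, 4 were at least 2-fold lower on the silenced array, FOXM1, MYBL2, E2F7 and E2F8, and 0 were at least 2-fold higher. Of all 10514 genes measured, 3.07% passed 2-fold in the lower direction and 3.31% in the higher. The regulators' median log2 ratio, silenced minus control, was -0.86, beside -0.02 over all genes, and 8 of the 10 ratios were under 0, beside 51.4% of all genes. The other 2, of E2F1 and RB1, were close to 0. The regulators were chosen with earlier results of these data known, so these counts are a description and no independent support. With 1 array per group there is no replicate check and no p-value, and precision is limited by that number. In bulk RNA, fewer cells in a cycling state and less RNA of a gene per cell cannot be told apart.

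FOXM1, the forkhead factor of the G2 and mitosis genes, had a signal of 832.3 on the silenced array, against 1932.9 on the control array. It was 2.32-fold lower, a log2 ratio of -1.22, the lowest of the 10. The 1 probe set named for it is of the _x_at kind, which can cross-hybridise with other transcripts. MYBL2, the partner of MuvB, had a signal of 2078.1 on the silenced array, against 4564.4 on the control array, which is 2.20-fold lower with a log2 ratio of -1.14. It also had 1 probe set, and its bright signal lay far above the floor on both arrays. Among all genes measured, 1.55% had a ratio as low as that of FOXM1 or lower, and 2.07% one as low as that of MYBL2. Among the 1051 genes in the same decile of mean signal the shares were 2.09% for FOXM1 and 2.95% for MYBL2, so both stood in the lower tail at their own signal level.

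The atypical repressors E2F7 and E2F8 were lower together. E2F8 had a signal of 1924.2 on the silenced array, against 3866.9 on the control array, a 2.01-fold lower signal with a log2 ratio of -1.01 on its 1 probe set. E2F7 had a signal of 483.3 on the silenced array, against 1005.4 on the control array, on its brighter probe set, which is 2.08-fold lower with a log2 ratio of -1.06. Its dimmer probe set had 121.8 on the silenced array, against 149.4 on the control array. This is a log2 ratio of -0.29, so the probe sets of E2F7 share the direction and differ in size. That dimmer signal was close to the floor on both arrays. Among all genes measured, 2.59% had a ratio as low as the -1.06 of E2F7 and 3.03% one as low as that of E2F8. Within their own deciles of mean signal the shares were 2.66% for E2F7 and 3.52% for E2F8.

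The activators did not move as 1 group. E2F1 had a signal of 405.7 on the silenced array, against 400.3 on the control array, with a log2 ratio of 0.02. Its other probe set had 233.8 on the silenced array, against 218.1 on the control array, with a log2 ratio of 0.10. Neither E2F1 probe set was lower after silencing, and 53.3% of all genes had a ratio as low or lower. E2F2 had a signal of 294.0 on the silenced array, against 486.1 on the control array, which is 1.65-fold lower with a log2 ratio of -0.73. Its other probe sets reached neither floor, with 49.9 and 43.4 on the silenced array, against 75.7 and 51.7 on the control array, and gave no ratio. E2F3 had 1597.1 on the silenced array, against 2225.3 on the control array, on its brighter probe set, a log2 ratio of -0.48. Its dimmer probe set had 762.6 on the silenced array, against 920.4 on the control array, a log2 ratio of -0.27. E2F3 was thus lower on both of its probe sets by less than 2-fold, and the probe sets are not annotated here to its separate promoters. Ratios as low as that of E2F2 were found in 6.85% of all genes and as low as that of E2F3 in 14.1%, so E2F3 was nearer the bulk of genes.

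E2F5, the pocket-protein-bound repressor of the set, had a signal of 592.4 on the silenced array, against 758.7 on the control array. It was 1.28-fold lower with a log2 ratio of -0.36. Its other probe set did not reach the floor of either array, with 35.2 on the silenced array and 43.4 on the control array. Over all genes, 20.4% had a ratio as low as that of E2F5 or lower.

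The pocket proteins differed from one another. RB1, the retinoblastoma gene, had signals of 1519.1 on the silenced array and 1493.5 on the control array, a log2 ratio of 0.02. Its other probe set had 348.9 on the silenced array, against 356.9 on the control array, a log2 ratio of -0.03. Both probe sets of RB1 thus lay within 1.02-fold of equal. RBL1 had a signal of 168.3 on the silenced array, against 333.9 on the control array, which is 1.98-fold lower with a log2 ratio of -0.99. Its 2 other measured probe sets had 186.9 and 141.2 on the silenced array, against 248.1 and 195.3 on the control array, with log2 ratios of -0.41 and -0.47. All 3 were lower on the silenced array, but only the brightest came near 2-fold, and a further RBL1 probe set reached neither floor, with 11.9 on the silenced array and 31.1 on the control array. A ratio as low as that of RBL1 was found in 3.19% of all genes, but in 5.80% of the genes in its own decile of mean signal. E2F8 at -1.01 and RBL1 at -0.99 are the members just inside and just outside the 2-fold rule.

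**Figure D2:**
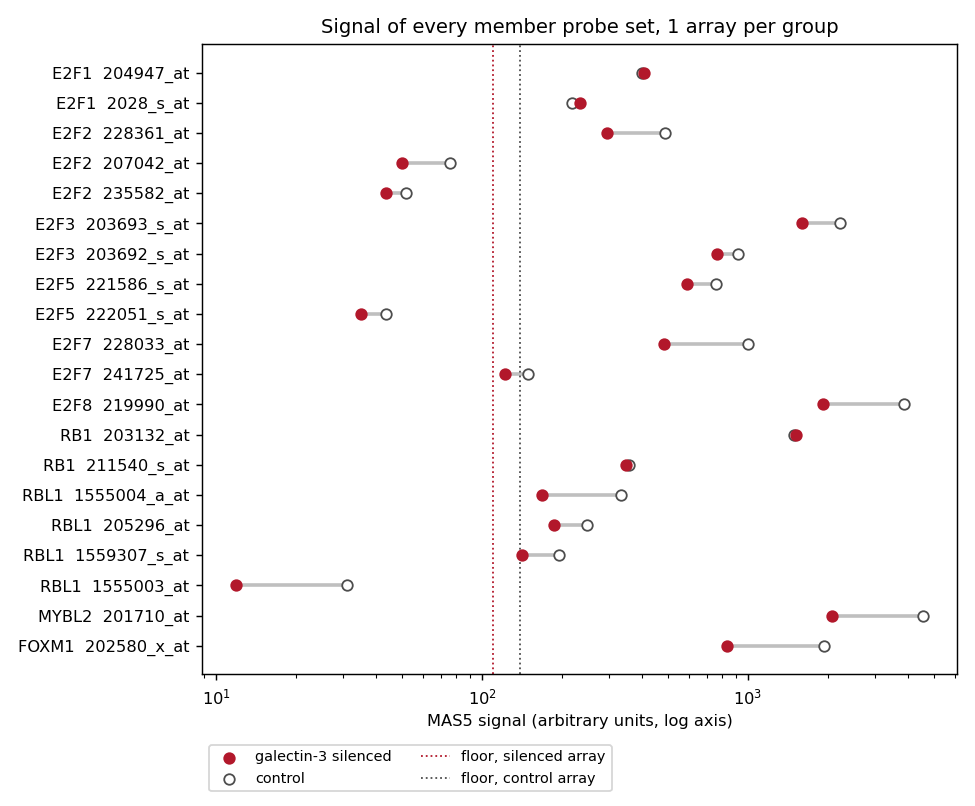
MAS5 signal of each of the 20 member probe sets on a log axis, filled points for the galectin-3 silenced array and open points for the control array, with dotted lines at the floor of each array. The widest gaps above the floor are those of FOXM1, MYBL2, E2F7, E2F8 and RBL1, and the points of E2F1 and RB1 nearly coincide.

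Of the 20 member probe sets 16 exceeded the floor of each array, and of these 13 had a log2 ratio under 0, 4 passed 2-fold in the lower direction and 0 in the higher. Of the 23611 probe sets that exceeded a floor on 1 array or more, 3.09% passed 2-fold in the lower direction and 3.12% in the higher. The 4 remaining member probe sets reached neither floor. As a measure of technical scatter, log2 ratios of probe sets for the same gene had an SD of 0.32 over 4728 genes with several. This scatter comes from a single RNA per group and says nothing of repeat cultures. It is pooled over genes of all signal levels above the floor, so a multiple of it is no test of a single gene. On the probe set that stands for each gene, the ratios of FOXM1, MYBL2, E2F7, E2F8 and RBL1 are more than 3 times this SD. Those of E2F1 and RB1 are well within it. The other measured probe sets of RBL1, at -0.41 and -0.47, and of E2F7, at -0.29, fall short of 3 times the SD.

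**Figure D3:**
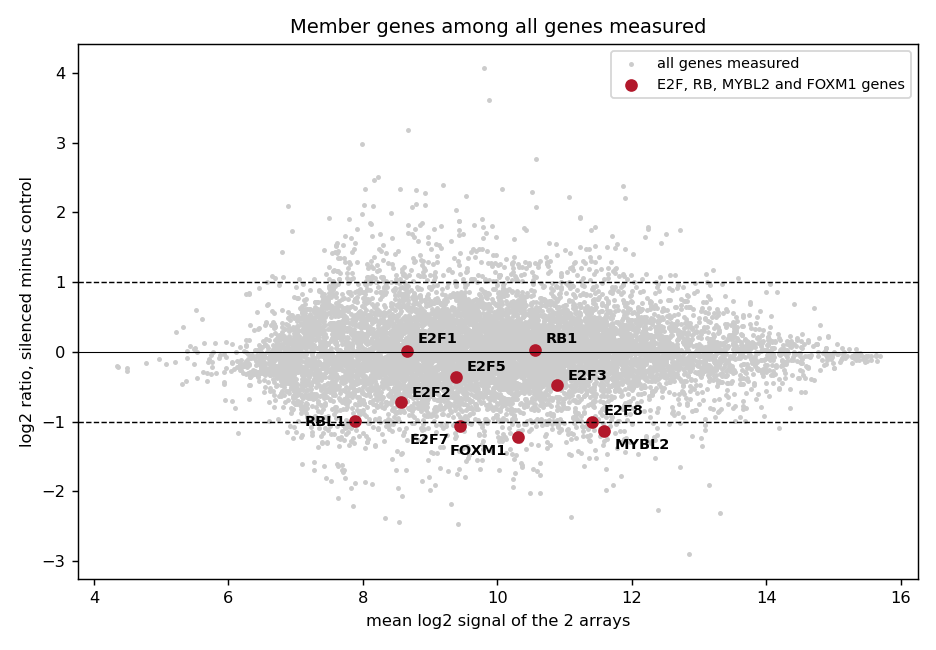
Log2 ratio, silenced minus control, against the mean log2 signal of both arrays for the 10514 genes measured (grey) and the 10 regulators (red, named), with dashed lines at 2-fold. FOXM1, MYBL2, E2F7 and E2F8 lie below the lower line, RBL1 lies on it, and E2F1 and RB1 lie at 0.

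The ratios depend in part on how the arrays are scaled. Under 12 alternative settings 8 members had a ratio under 0 wherever they could be measured. The largest upward shift, with hybridization controls set equal, took the median of all genes from -0.02 to 0.17. E2F5, the nearest of the 8 to 0, stood at -0.36, so a shift of that size could not turn the sign of any of them. E2F1 ranged from -0.21 to 0.20 and RB1 from -0.21 to 0.21, so neither has a settled direction. FOXM1 ranged from -1.45 to -1.03 and was the member that passed 2-fold in all 11 settings that could measure it. MYBL2 ranged from -1.37 to -0.95, E2F8 from -1.24 to -0.83, E2F7 from -1.29 to -0.68 and RBL1 from -1.22 to -0.47. MYBL2 passed 2-fold in 11 of 12 settings, E2F8 in 10, E2F7 in 9 and RBL1 in 1. FOXM1, MYBL2 and E2F8 have 1 probe set each, far above the floor. Settings that only move or remove the floor, or choose among probe sets, could not alter their ratios. Those passes were fixed in advance.

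**Figure D4:**
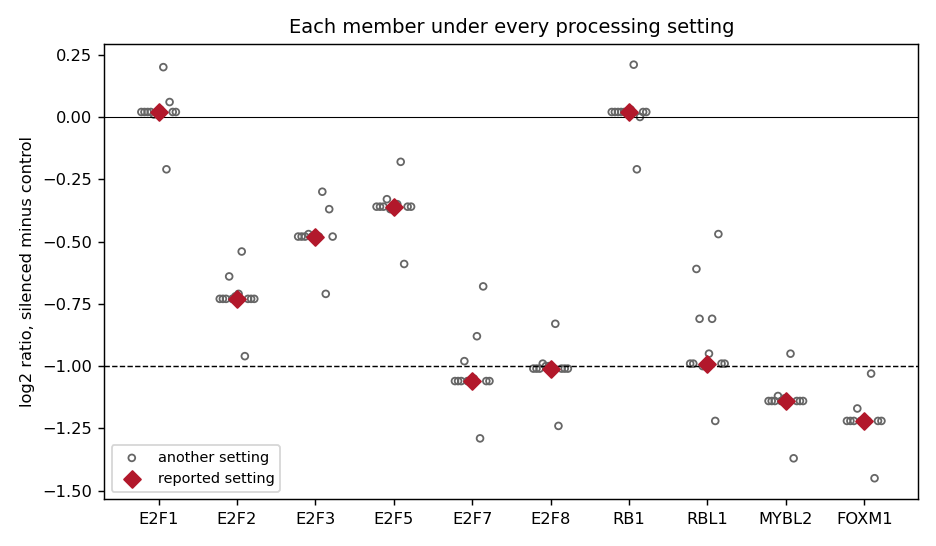
Log2 ratio, silenced minus control, of each regulator under the reported setting (diamond) and under up to 12 other settings of the floor, scaling and probe set choice (circles), with a dashed line at 2-fold lower. FOXM1 stays below the dashed line throughout, MYBL2, E2F8 and E2F7 straddle it in few settings, and E2F1 and RB1 lie on both sides of 0.

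Genes that work with the regulators were counted from a list of 30 partners that shares no gene with them, of which 25 were measured. It holds the other E2F, DP and pocket protein genes, MuvB subunits, G1 cyclins, their kinases and inhibitors, and cyclins and kinases that act on these factors. Of the 25, 3 were at least 2-fold lower, PLK1, CCNF and CCNA2, and 1 was at least 2-fold higher, CCND3. The other 21 were neither, and the median log2 ratio of the 25 was -0.18. SKP2, counted among the 21, had -0.06 on the probe set that stands for it, but -0.83 and -2.08 on its others. Over all genes measured, 3.07% passed 2-fold lower and 3.31% higher, so the 1 higher partner of 25 is near the share of all genes. PLK1, a mitotic kinase that phosphorylates FOXM1, had a signal of 709.9 on the silenced array, against 2895 on the control array, a log2 ratio of -2.03. CCNF, the F-box cyclin that marks E2F activators for destruction, had 395.6 on the silenced array, against 1365.9 on the control array, a log2 ratio of -1.79 that its other probe set gave as -1.28. CCNA2, the S phase and G2 cyclin, had a log2 ratio of -1.07, and -1.22 on its other probe set. PLK1 and CCNA2 also belong to the target list of MuvB, MYBL2 and FOXM1 below.

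Relatives of the members outside the set had ratios from -0.74 to 0.33 on their brightest probe sets. The repressor E2F4 had a log2 ratio of -0.18 with signals of 1141.8 on the silenced array and 1297.2 on the control array. E2F6, a repressor that works without pocket proteins, had -0.06. RBL2, also called p130 and the main pocket protein of quiescent cells, had 0.33, with signals of 919.8 on the silenced array and 733.4 on the control array, and 0.11 on its other probe set. RBL1 and RBL2 thus had ratios of opposite sign, a difference without a test. The DP partner TFDP1 had -0.23, with 0.63 and -0.44 on its other probe sets, and TFDP2 had -0.74, with 0.32 and 0.15 on others, so neither has 1 direction over its probe sets. MYBL1, the relative of MYBL2 best known from the testis, had -0.32.

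The subunits of MuvB, the core that carries RBL1 or MYBL2, did not move in 1 direction. LIN37 had a log2 ratio of 0.61, with a signal of 755.8 on the silenced array, against 495.6 on the control array. LIN52 had -0.16 and, on its other probe set, -0.72. RBBP4, a histone-binding subunit shared with other complexes, had -0.52 and ratios from -0.95 to -0.01 on its other probe sets. LIN54, the DNA-binding subunit, had 98.1 on the silenced array, under the floor of 109.5. On the control array it had 144.7, just above the floor of 138.4. Raising the silenced signal to its floor gives 1.32-fold lower, most of which reflects the unequal floors, so no direction is read for LIN54. LIN9 was not measured by the rule used, although an _x_at probe set gave -0.68.

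At the G1 step upstream of RB1, the cyclins went in different directions. CCND3 had a signal of 5311.9 on the silenced array, against 1881.1 on the control array, which is 2.82-fold higher. CCND1 had 2940.5 on the silenced array, against 5459.2 on the control array, a log2 ratio of -0.89, and -0.43 on its other probe set. The E-type cyclins, which carry E2F-driven cells into S phase, had 0.28 for CCNE1 and 0.23 for CCNE2. CDKN1A, the p21 inhibitor of these kinases, had 5578.5 on the silenced array, against 3043.5 on the control array, a log2 ratio of 0.87. CCND1, the E-type cyclins and CDKN1A all stopped short of 2-fold.

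Targets of the regulators were described with lists of known target genes. The lists were chosen with earlier results of these data known, so their counts are a description and no independent support. Of 42 E2F target genes of G1, S phase and replication, 39 were measured, of which 5 passed 2-fold in the lower direction and 0 in the higher. Their median log2 ratio was -0.56, with 35 under 0. Over all genes measured, 3.07% passed 2-fold lower, the median was -0.02 and 51.4% of ratios were under 0. The 5 were POLA1, the catalytic subunit of DNA polymerase alpha, at -1.98, BRCA1, a repair gene, at -1.43 with -0.31 on another probe set, POLE, the leading-strand polymerase, at -1.15, MCM3, a helicase subunit, at -1.11, and TK1, thymidine kinase, at -1.02. CCNE1 and CCNE2 are in this list and the partner list alike, and were among the 4 with a ratio above 0.

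Of 40 target genes of MuvB, MYBL2 and FOXM1 that act in G2 and mitosis, all 40 were measured, 29 passed 2-fold in the lower direction and 0 in the higher. All 40 had a ratio under 0, from -2.03 to -0.69, with a median of -1.20. The shares over all genes measured were 3.07% at least 2-fold lower, 3.31% at least 2-fold higher and 51.4% under 0. After PLK1, the 5 lowest were DLGAP5, a spindle protein, at -1.98, KIF20A, a kinesin of cytokinesis, at -1.71, CDC25C, the phosphatase that activates CDK1, at -1.66, HMMR, a spindle-associated protein, at -1.64, and CENPE, a kinetochore motor, at -1.53. HMMR had -1.35 on its other probe set. The E2F list and this list share 0 genes.

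**Figure D5:**
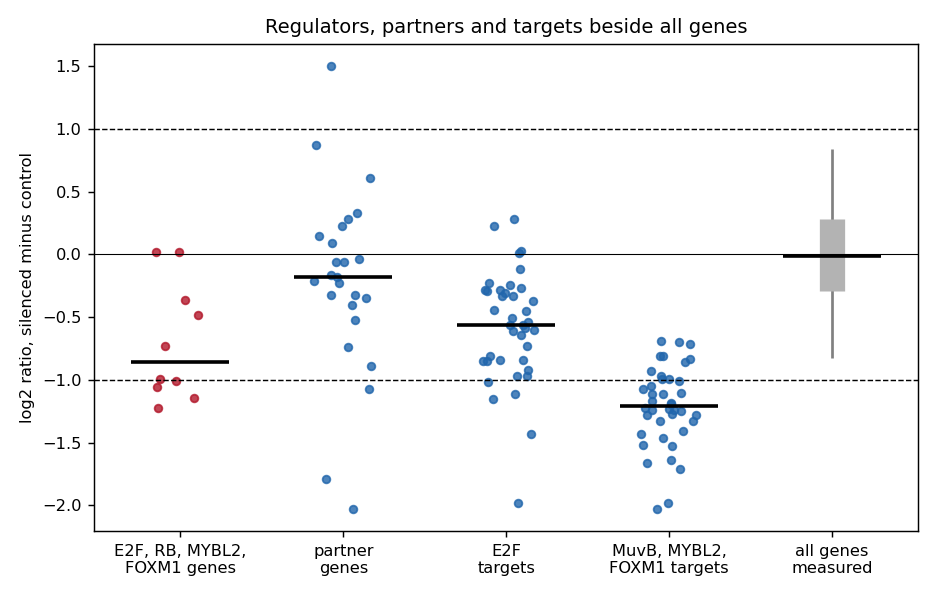
Log2 ratio, silenced minus control, of the measured genes of each list, with 1 point per gene and a bar at the median, beside all 10514 genes (bar for the median, thick box for the middle 50% and line for the central 90%), with dashed lines at 2-fold. The medians are -0.86 for the regulators, -0.18 for partners, -0.56 for E2F targets and -1.20 for targets of MuvB, MYBL2 and FOXM1, beside -0.02 for all genes.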

How the data were processed

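Total RNA taken up in Trizol was turned into biotinylated cRNA for Affymetrix arrays with 1 colour, per the labels' protocols. The authors deposited linear intensity values, which MAS5 produced, per the submitters' processing notes. Its version, scaling target and filters are unstated in those notes as used here. Groups follow the labels, with 1 silenced and 1 control array, so there were no replicates to compare.

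Probe sets were named from the platform annotation. Of 54675, 41097 carry 1 gene symbol, 1801 several and 11777 none here, and all 20 member probe sets matched RefSeq by gene identifier. Signals under the floor of an array were raised to it, so that a ratio with 1 side under the floor is a bound. Each gene was represented by its brightest probe set (mean log2 signal over both arrays), with _x_at left out where it had another, and counted as measured if that probe set was above the floor on at least 1 array. This gave 10514 genes, 9579 of them above it on both. The call was a log2 ratio of 1 or more either way. MAS5 treats each array alone, which leaves low signals noisy, and equal scaling hides a change in total RNA. The rule named all members, up to 6 genes past 2-fold per list and fixed partners by role. The members and lists were chosen with earlier results of these data known. The computation was tested on simulated data and used Python 3.11.15 with numpy 2.4.6, pandas 2.3.3 and, for lowess curves with a span of 0.3, statsmodels 0.14.6. The 12 alternatives changed the floor, the scaling or the probe set that stands for a gene.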

Additional observations from a re-analysis of the deposited data

How the results depend on the processing

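There were 12 main results, the counts and medians of the regulators and of the partner and target lists. Of these, 9 stayed within the tolerance under all 12 alternatives, and 5 of 144 values lay outside it. The tolerance was 1.5 times for a count and the SD between probe sets of 0.32 for a log2 ratio. These tallies overstate stability. Counts of higher regulators and of higher target genes were 0 in every setting. Several settings could not move a gene with 1 bright probe set. A regulators' median of -0.57 still counts as within the tolerance. The partner median of -0.18 is smaller than that tolerance, and ranged from -0.42 with the poly-A controls set equal to 0 with the hybridization controls set equal, so it has no settled direction. With the hybridization controls set equal, 1 regulator was at least 2-fold lower in place of 4, 2 E2F targets in place of 5, and 2 partners were at least 2-fold higher in place of 1. With the poly-A controls set equal 13 E2F targets were at least 2-fold lower, and with an offset of 50 in place of the floor 2 regulators were. The number of regulators at least 2-fold lower ranged from 1 to 5 and their median log2 ratio from -1.09 to -0.57. The MuvB, MYBL2 and FOXM1 target list had 21 to 37 genes at least 2-fold lower. Single members moved in 3 of 117 values, E2F7 to -0.68 and RBL1 to -0.47 when the median over probe sets stood for the gene, and RBL1 to -0.61 with a floor 2 times higher.

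The median of all genes was 0.17 with the hybridization controls set equal and -0.25 with the poly-A controls set equal, shifts that add the same amount to every ratio. Relative to the median of all genes, the regulators' median was -0.84 as reported, -0.54 when the median over probe sets stood for the gene, -0.65 with a floor 2 times higher and -0.96 without _s_at and _x_at probe sets. The share of higher genes among those past 2-fold was 51.9% as deposited, against 75.9% and 22.7% under those scalings. Over all genes, 348 were at least 2-fold higher and 323 lower, against 576 and 183 with the hybridization controls, 186 and 633 with the poly-A controls, and 2466 and 2459 of 19775 genes without a floor, where unmeasured signals count. FOXM1, E2F3 and E2F5 have no probe set left without _s_at and _x_at. No paired analysis was possible because each group has 1 array. The dimmer E2F7 probe set and those of RBL1 have signals near the floor, which limits their ratios.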

Other observations

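The CHR letters TTTGAA, to which MuvB is known to bind, were set against the ratios of all genes with a promoter window, as a description with no test. Of 8097 measured genes with a window, 808 held TTTGAA on either strand, and 7.92% of these were at least 2-fold lower on the silenced array, against 2.57% of the 7289 without it. The medians of both groups lay close together, at -0.08 with the letters and -0.01 without. Genes with an E2F word differed less from the rest, with 3.59% of 473 genes at least 2-fold lower, against 3.07% of 7624 genes without a word. For the E2F core the shares were 3.6% with it and 2.92% without, and for CCAAT 3.59% with it and 2.8% without. In the target list of MuvB, MYBL2 and FOXM1, 25 of 35 windows held TTTGAA and 29 a CCAAT box. Of these 35, 3 held an E2F word and 11 the E2F core. In the E2F target list 1 of 33 windows held TTTGAA, 17 an E2F word, 16 the E2F core and 17 a CCAAT box. The shares over all measured genes include the genes of both lists. Of the 808 genes with TTTGAA, 64 were at least 2-fold lower, and the 808 include the 25 of the MuvB, MYBL2 and FOXM1 list. That list was chosen with earlier results of these data known, so the higher share with TTTGAA is no independent support. Shares without the lists were not computed.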
